A study of Mus musculus with 17 samples.

Results

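PU.1, encoded by Spi1, was followed here together with 8 other transcription factors of hematopoietic stem cells (HSCs), namely Runx1, Erg, Fli1, Etv6, Gfi1, Meis1, Hlf and Mecom. All probe sets annotated to 1 of these 9 symbols alone were taken, which gave 22 of the 45101 probe sets on the array: 1 each for Spi1 and Gfi1, 6 for Runx1, 2 each for Erg, Fli1, Etv6 and Hlf, and 3 each for Meis1 and Mecom. The 17 Affymetrix arrays measured RNA of sorted mouse HSCs. Of these, 3 were of HSCs from fetal liver at E15.5, a mid-gestation stage, for which the labels give no genotype. Adult HSCs came from mice given pIpC, an artificial RNA duplex that sets off an interferon response and is often used to turn on Cre. They were taken at day 7 (3 control and 3 KO arrays) and at day 21 (4 control and 4 KO arrays). The adult gate was lin-sca1+ckit+CD150+CD48-, and the fetal gate added low Mac-1. Control mice are labelled wild type. The arrays called KO here are titled C/EBPa KO, but their genotype field reads Pu.1 knock-in (PU.1ki/ki), so the labels name different genes as altered. The Cre line, the ages of the adult mice, and whether replicates were separate animals or pools are not stated in the labels. P-values therefore measure only the spread between these samples, which may be technical.

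PU.1, ERG, FLI1 and ETV6 are ETS proteins, a family that binds DNA through a shared domain that recognizes a GGA core. Erg, Runx1, Meis1, Hlf and Mecom are known for roles in forming or maintaining HSCs. PU.1 drives myeloid and lymphoid fates, GFI1 represses transcription and restrains HSC cycling, and FLI1 and RUNX1 also act in megakaryocytes, the platelet precursors. C/EBPa works with PU.1 in myeloid cells.

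RefSeq promoter sequences of mouse assembly GRCm38.p6 were matched for 7 of the 9 genes, as 12 promoters. Among the members, Erg and Hlf had the smallest p in KO against control over both days, and neither was called. Gfi1 was the member that varied most between arrays. For these genes the stretches before the outermost annotated start are shown. All 3 lie outside the gene model, on the minus strand, at chr16:95586601-95586843 for Erg, chr11:90390918-90391167 for Hlf and chr5:107725806-107726055 for Gfi1, and are written 5′ to 3′ along the gene. Capitals mark any match, on either strand, to GGAAG (an ETS core), TGTGGT (RUNX) or TTGCNNAA (C/EBP).
Erg: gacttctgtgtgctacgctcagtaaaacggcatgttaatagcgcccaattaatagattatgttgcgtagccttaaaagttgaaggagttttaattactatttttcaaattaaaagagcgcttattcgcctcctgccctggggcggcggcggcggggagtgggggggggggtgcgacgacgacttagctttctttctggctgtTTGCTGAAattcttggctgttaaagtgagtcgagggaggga
Hlf: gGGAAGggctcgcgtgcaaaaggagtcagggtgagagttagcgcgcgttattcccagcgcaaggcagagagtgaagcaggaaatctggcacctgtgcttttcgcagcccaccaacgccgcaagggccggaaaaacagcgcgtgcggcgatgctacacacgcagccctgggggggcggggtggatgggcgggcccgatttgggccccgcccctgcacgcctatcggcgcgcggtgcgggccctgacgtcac
Gfi1: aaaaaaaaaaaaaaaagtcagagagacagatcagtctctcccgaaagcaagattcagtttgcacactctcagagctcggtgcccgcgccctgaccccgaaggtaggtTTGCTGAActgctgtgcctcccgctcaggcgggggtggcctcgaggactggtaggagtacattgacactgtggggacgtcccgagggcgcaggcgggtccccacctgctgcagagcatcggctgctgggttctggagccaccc
The Erg and Gfi1 stretches each held 1 match to the C/EBP letters, and the Hlf stretch held 1 match to the ETS letters. Over the 250 bases before each start, TTGCNNAA was present in 3 of the 12 member promoters and in 9.6% of 32851 promoters. These 3 belonged to Erg and Gfi1 alone, since promoters of the same gene were counted separately. GGAAG was present in 7 of 12 and in 64.1% of all. TGTGGT was present in 1 of 12, that of Meis1, and in 14.0% of all. A match is a run of letters and not a measured binding site.

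Values were intensities on a linear scale with a floor of 16, at which 20.4% to 25.2% of probe sets lay per array. All 22 member probe sets exceeded the floor on at least 1 array and were tested. Mecom 1423011_at lay at the floor on 13 arrays, and Gfi1 1417679_at and Meis1 1443260_at on 1 array each. Median intensity per array ran from 39.4 to 53.1. Control day 21 arrays were the least alike, with a mean within-group correlation between 0.810 and 0.848 per array, against 0.897 to 0.922 for the KO arrays of that day. The lowest, 0.810, belonged to control day 21 replicate 3. That array also had the lowest median intensity (39.4), the largest share at the floor (25.2%) and the lowest log2 ratio of 3′ to 5′ control signals (−0.40). Cebpa lay between 20.7 and 39.8 on the 7 KO arrays and between 115 and 532 on the 7 control arrays (log2 difference over both days −2.78, SE 0.36, limma adjusted p = 0.0418). It was also low in fetal liver, at 30.2 to 81.0 (−2.08 against adult control, SE 0.47, limma adjusted p = 0.0284), so a low Cebpa level was not particular to the KO arrays. The labels do not say whether its probe set lies in the deleted part. Of the defining HSC surface genes, Kit (442 to 905) and Slamf1 (37.8 to 1049) were above the floor on every array, while no probe set annotated to Ly6a alone was measured. Fetal liver arrays also carried genes of other cells. Summed endothelial marker intensity was 3153 to 14155, against 851 to 1706 on adult arrays, with all 10 markers higher. Macrophage markers summed to 2589 to 3173 against 215 to 425 (9 of 9 higher). Erythroid markers summed to 3960 to 7154 against 388 to 5722, of which control arrays reached 2150 at most (6 of 6 measured higher). Hepatocyte markers summed to 747 to 9357 against 332 to 1086 (6 of 6 measured higher). The T cell gene Cd3e did not exceed 19.7 on any array. In bulk samples, fewer cells of a type and less RNA per cell cannot be told apart.

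**Figure D1:**
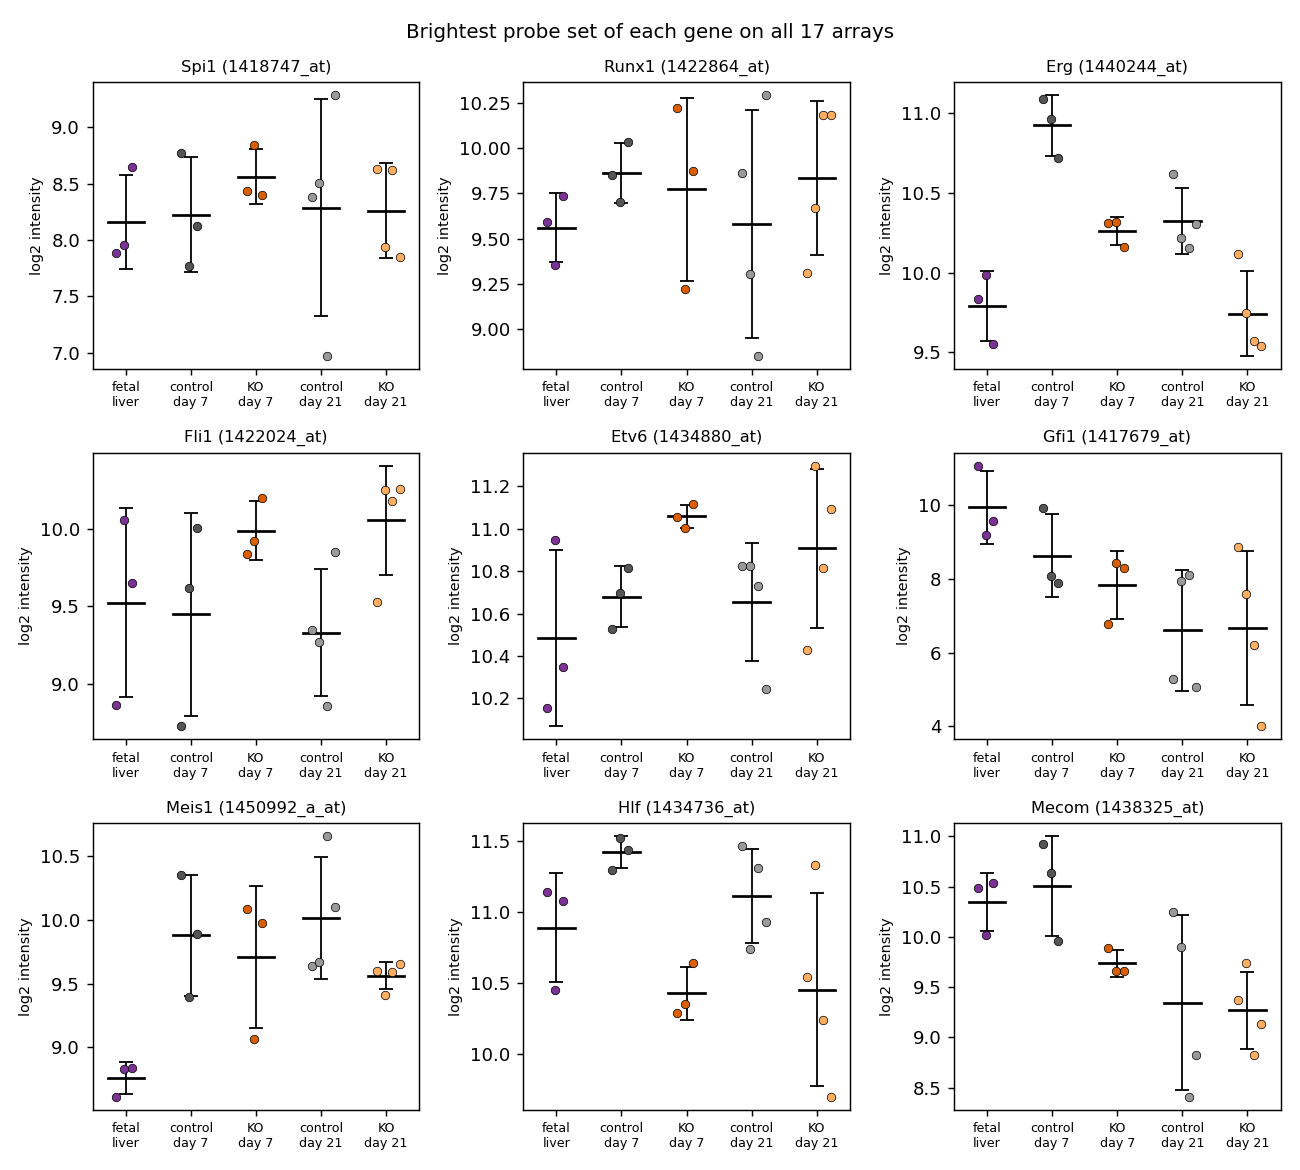
Log2 intensity of the brightest probe set of each gene on the 17 arrays. Points are arrays, the long bar is the group mean and the whiskers are ± 1 SD (n = 3 for fetal liver and day 7, n = 4 for day 21); the axis differs between panels and does not start at 0. Erg steps down from control day 7 (mean 10.92) to KO day 21 (9.74), Meis1 is lowest in fetal liver (8.76), and the 5 Spi1 groups overlap.

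Spi1 was measured in all 5 groups at overlapping levels. The fetal liver arrays read 237, 248 and 399.9. At day 7 the control arrays read 438, 219 and 279.7 and the KO arrays 347, 459.9 and 338. At day 21 the control arrays read 334, 364, 126 and 623 and the KO arrays 396, 245, 393 and 231. Control day 21 held both the lowest and the highest array of the series. The lowest was replicate 3, the array that also had the lowest median intensity. KO minus control was, on the log2 scale, 0.34 (SE 0.47) at day 7, −0.03 (SE 0.41) at day 21 and 0.15 (SE 0.31) over both days, with a 95% interval of −0.51 to 0.82 for the last. The limma adjusted p was 0.905 or higher in each. Fetal liver differed from adult control by −0.09 (SE 0.40, adjusted p = 0.960). The interval is wide, so equal levels were not shown. The knock-in named in the genotype field could not be checked from this probe set, since the sources used here do not say what was inserted.

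Erg had the smallest p of the members in fetal liver against adult control and in KO against control at each day. On probe set 1440244_at, the brighter of its pair, the control day 7 arrays read 2178, 1998 and 1684 and the KO day 7 arrays 1270.1, 1275 and 1146. The control day 21 arrays read 1575, 1190.3, 1140.1 and 1266 and the KO day 21 arrays 1111, 859, 762 and 744. Fetal liver arrays read 914, 1015 and 751. Every KO array thus lay below every control array of its own day, and every fetal array lay below every adult control array. Fetal liver Erg was 1.78-fold lower than adult control (log2 difference −0.83, SE 0.15, limma adjusted p = 0.00936), 1 of 2 member probe sets called in that comparison. The KO differences were of like size, −0.66 at day 7 (SE 0.18, 95% interval −1.05 to −0.27, adjusted p = 0.465) and −0.58 at day 21 (SE 0.16, interval −0.92 to −0.24, adjusted p = 0.262), and neither passed. Over both days the difference was −0.62 (SE 0.12), and its adjusted p of 0.0882 was the smallest of the 22 and did not pass either. The KO effect at day 21 minus that at day 7 was 0.08 (SE 0.24, interval −0.44 to 0.60).

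Erg also differed with time. Control day 21 stood 0.60 below control day 7 on the log2 scale without overlap (SE 0.17, limma adjusted p = 0.381, not called), and each KO day 21 array was below each KO day 7 array. In order of mean log2 intensity the groups were control day 7 (10.92 ± 0.19, SD, n = 3), control day 21 (10.32 ± 0.21, n = 4), KO day 7 (10.26 ± 0.09, n = 3), fetal liver (9.79 ± 0.22, n = 3) and KO day 21 (9.74 ± 0.26, n = 4). Control day 21 and KO day 7 overlapped, as did fetal liver and KO day 21; the other neighbours did not. The other Erg probe set, 1425370_a_at, did not repeat the fetal difference. It read 874, 1265 and 1401 in fetal liver, 1615, 1810.0 and 1117 in control day 7, and 1179, 825, 1543 and 706 in control day 21. KO arrays read 1261, 1045 and 1250.4 at day 7 and 779, 1105, 824 and 856 at day 21. Its log2 differences had the same sign but smaller size, −0.08 (SE 0.24) for fetal liver, −0.33 (SE 0.28) for KO at day 7 and −0.20 (SE 0.25) at day 21. Across the 17 arrays the pair of Erg probe sets had a Pearson correlation of 0.47.

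**Figure D2:**
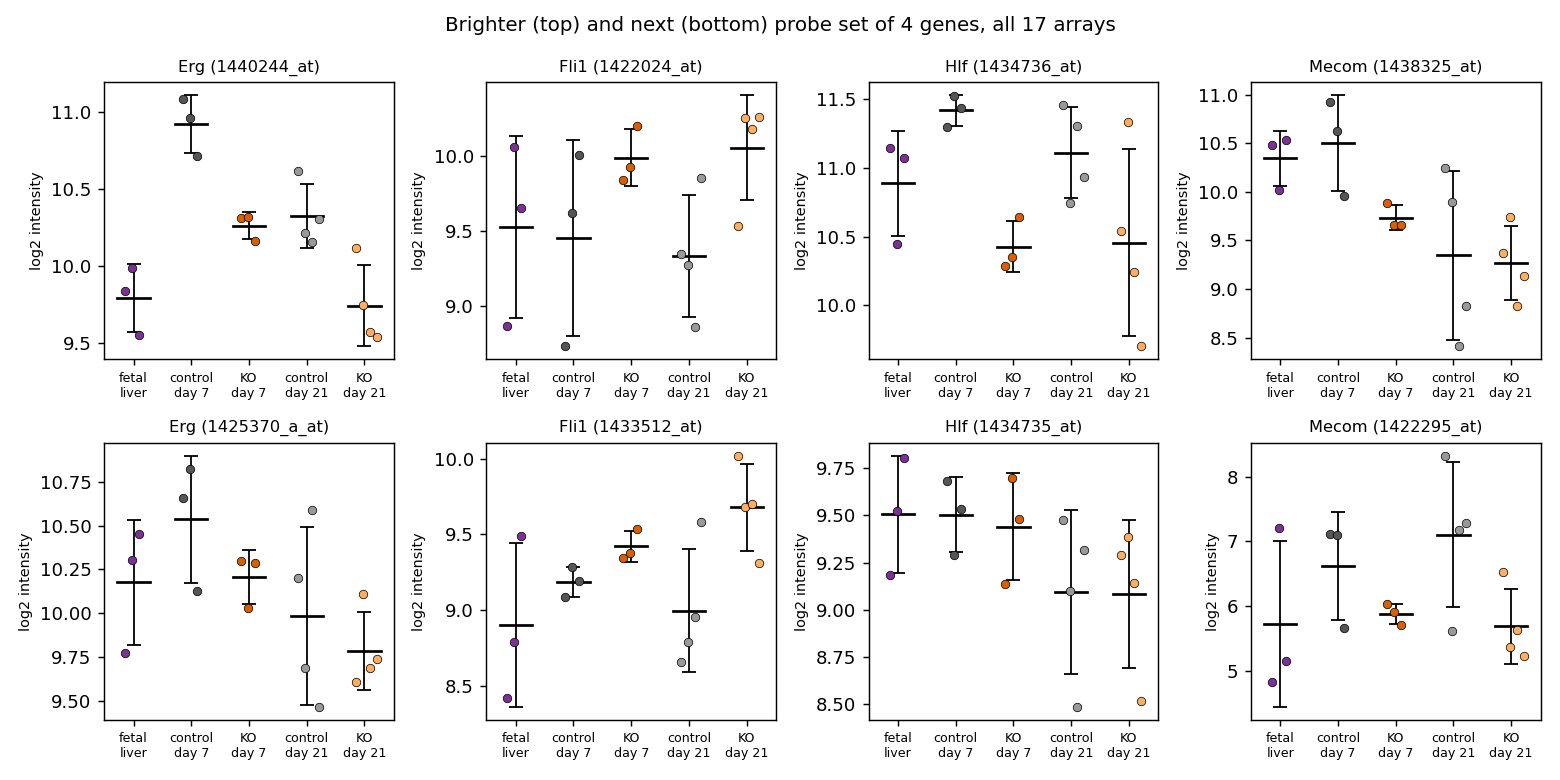
Log2 intensity of the brighter (top) and next brightest (bottom) probe set of Erg, Fli1, Hlf and Mecom on the 17 arrays, with group means and ± 1 SD; axes differ between panels. KO and control separate on the upper Erg panel at both days and overlap at both days on the lower one, both Fli1 panels place KO day 21 highest on average, and the lower Hlf panel shows KO and control at nearly equal means.

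Meis1, a TALE homeodomain factor that partners HOX proteins, was lower in fetal liver. On its brightest probe set, 1450992_a_at, fetal liver arrays read 391, 455 and 458. Control arrays read 1303, 674 and 950.1 at day 7 and 794, 813, 1611 and 1099 at day 21. All 3 fetal arrays lay below all 14 adult arrays, of which the lowest, a KO day 7 array, read 537. The fetal level was 2.28-fold lower than adult control (log2 difference −1.19, SE 0.26, limma adjusted p = 0.0275). KO arrays read 1086, 537 and 1006 at day 7 and 774, 681, 770.1 and 803 at day 21. They differed from control by −0.17 (SE 0.31) and −0.45 (SE 0.27), with overlap and without a call. The 2 dimmer Meis1 probe sets were also lower on average in fetal liver and were not called, at −0.38 (SE 0.43) for 1459423_at and −1.27 (SE 0.94) for 1443260_at. They ranged over the 17 arrays from 96.3 to 604 and from the floor to 368. Without fetal liver replicate 1, 2 or 3, or control day 7 replicate 1 or 3, the Meis1 call was lost, with an adjusted p of 0.0921, 0.0797, 0.0707, 0.0518 and 0.0501 in turn. The Erg call was lost without fetal liver replicate 3 alone (−0.71, adjusted p = 0.0531). Fitted to the 3 groups compared alone, neither passed (adjusted p = 0.0551 for Erg and 0.102 for Meis1). With the 3′ to 5′ signal ratio of each array as a covariate Meis1 did not pass (adjusted p = 0.0596). The markers of other cells named above moved with the same arrays, and their part in these results was not tested.

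**Figure D3:**
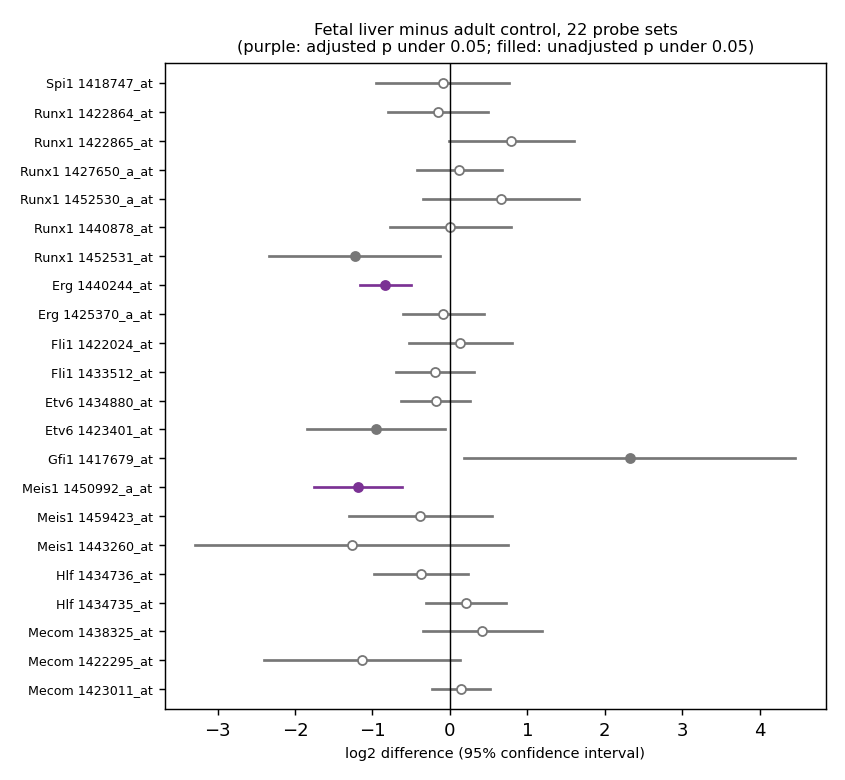
Log2 difference between fetal liver (n = 3) and the mean of both adult control groups (n = 7) for the 22 probe sets, with 95% confidence intervals from limma; purple marks an adjusted p under 0.05 and filled grey an unadjusted p under 0.05 alone. Erg 1440244_at (−0.83) and Meis1 1450992_a_at (−1.19) are the 2 purple points, and Gfi1 (2.32) has the widest interval.

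Hlf, a PAR bZIP factor whose transcript is concentrated in HSCs, had the smallest p after Erg in the KO comparison at day 7 and over both days, though not at day 21. On probe set 1434736_at the control day 7 arrays read 2516, 2935 and 2772 and the KO day 7 arrays 1250.4, 1308 and 1596, so the groups were well separated. At day 21 the control arrays read 2816, 1712, 2532 and 1954 and the KO arrays 1492, 2577, 1212 and 833, and 1 KO array, replicate 2, lay among the controls. The log2 difference was −0.99 at day 7 (SE 0.33, limma adjusted p = 0.577), −0.65 at day 21 (SE 0.29, adjusted p = 0.511) and −0.82 over both days (SE 0.22, interval −1.30 to −0.35, adjusted p = 0.215). None passed. Fetal liver arrays read 2260.3, 1398 and 2155 (−0.38, SE 0.28). The other probe set of Hlf, 1434735_at, gave −0.06 (SE 0.28), −0.01 (SE 0.24) and −0.04 (SE 0.19) for the same 3 KO comparisons. It read 823, 627 and 740.5 in control and 563, 831 and 714 in KO at day 7. At day 21 it read 712, 548, 358 and 638 in control and 625, 669.7, 565 and 367 in KO. The interval of its difference over both days, −0.44 to 0.36, overlaps the −1.30 to −0.35 of the brighter probe set. A difference between the Hlf probe sets was not tested.

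Fli1, the closest ETS relative of Erg, had higher means in KO on both probe sets without a call. On 1422024_at the control arrays read 424, 785 and 1027 at day 7 and 651, 617, 463 and 925 at day 21. The KO arrays read 915, 971 and 1178, and 739.5, 1220.2, 1161 and 1225. At each day the groups overlapped through the brightest control array. The log2 difference over both days was 0.63 (SE 0.24, interval 0.11 to 1.15, limma adjusted p = 0.368), with 0.72 (SE 0.32) at day 21. On 1433512_at the control arrays read 544, 624 and 585 at day 7 and 404, 444, 497 and 766 at day 21. The KO arrays read 651, 667 and 743 at day 7, all above the controls, and 1039, 823, 831 and 635 at day 21, where 1 array overlapped. The differences were 0.23 (SE 0.27) at day 7, 0.68 (SE 0.24, adjusted p = 0.371) at day 21 and 0.46 (SE 0.18) over both days. Fetal liver differed from control by 0.14 (SE 0.31) and −0.19 (SE 0.23).

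Megakaryocyte markers were mostly higher on the KO arrays, Pf4 most clearly among the defining ones. Gp9 read 189 to 369 in KO and 103 to 164 in control at day 7. At day 21 Gp9 overlapped, at 272 to 385 against 236 to 7224, with a lower median in KO (298 against 340). Gp1bb overlapped at day 7 (50.2 to 175 in KO, 36.0 to 209 in control) and not at day 21 (103 to 531 against 39.8 to 52.4). Pf4, platelet factor 4, read 757 to 2488 in KO and 54.7 to 212 in control at day 7, and 1540 to 3332 against 133 to 658 at day 21. The 6 markers of the list summed to 1392 to 3673 in KO against 572 to 1012 in control at day 7, and to 2831 to 5814 against 874 to 7886 at day 21. Pf4 weighed heavily in these sums, with a day 7 KO median of 2345 where the median of the sum was 3343. The control value of 7886 came from replicate 1, in which Gp9 reached 7224. Of the 6 markers, 6 were higher in KO at day 7 and 5 at day 21, against 50.1% and 50.3% of all genes. None of the 6 markers was called, where 0% and 0.0238% of all genes were called. Their part in the Fli1 values was not tested. Cd48, excluded by the sort gate, read 60.9 to 283 in KO and 16 to 18.8 in control at day 7, and 90.3 to 308 against 18.6 to 658 at day 21. The 5 measured multipotent progenitor markers summed to 1433 to 2712 in KO against 770 to 1154 in control at day 7, and to 990.03 to 1260 against 528 to 1728 at day 21. The 6 measured HSC markers summed to 2380.1 to 2626 in KO against 3098 to 3283 in control at day 7, and to 1595 to 2554 against 2586 to 4195 at day 21, without overlap at either day. Taken gene by gene on the log2 scale, 3 of the 6 HSC markers were lower in KO and 3 higher at day 7 (median −0.06). At day 21, 5 were lower and 1 higher (median −0.30). None of these progenitor and HSC markers was called in KO, and their part in the Erg and Hlf values was not tested either.

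**Figure D4:**
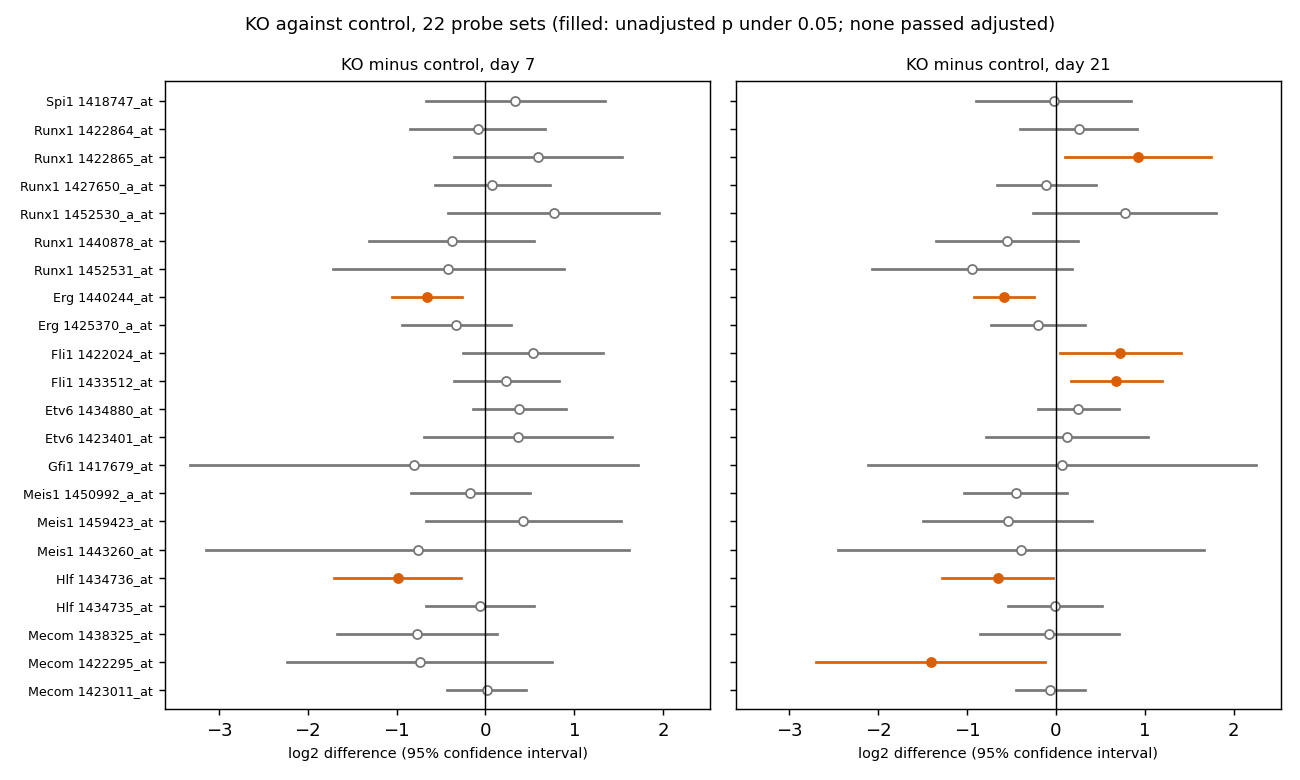
Log2 difference between KO and control at day 7 (left, n = 3 each) and day 21 (right, n = 4 each) for the 22 probe sets, with 95% confidence intervals from limma; filled points have an unadjusted p under 0.05 and none has an adjusted p under 0.05. Erg 1440244_at and Hlf 1434736_at lie left of 0 on both sides, both Fli1 probe sets lie right of 0, and the probe sets of Runx1 fall on either side.

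Etv6, an ETS repressor needed for adult HSC survival, read 1477, 1660.0 and 1799 in control and 2128, 2056 and 2217 in KO at day 7 on 1434880_at. All KO arrays of day 7 lay above all controls, with a log2 difference of 0.38 (SE 0.24, limma adjusted p = 0.850). At day 21 the values were 1813, 1813, 1697 and 1213 in control and 1379, 2516, 1802 and 2184 in KO, which overlapped (0.25, SE 0.21). Fetal liver read 1139, 1977 and 1302 (−0.18, SE 0.21). The dimmer probe set 1423401_at read 1008, 287 and 351 in fetal liver. Its fetal difference was −0.95 (SE 0.42, adjusted p = 0.279, not called), and its KO differences were 0.37 (SE 0.49) and 0.12 (SE 0.42).

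Runx1 gave no single picture over its 6 probe sets. Over both days, KO minus control was 0.08 (SE 0.23) on the brightest, 1422864_at, 0.76 (SE 0.29) on 1422865_at, −0.02 (SE 0.20) on 1427650_a_at, 0.77 (SE 0.36) on 1452530_a_at, −0.47 (SE 0.28) on 1440878_at and −0.68 (SE 0.40) on 1452531_at. Differences thus ran in both directions, and the smallest limma adjusted p of the 6 was 0.368, for 1422865_at. That probe set read 867, 435, 299 and 988 in control and 1062, 854, 1213 and 1313 in KO at day 21, where only control replicate 1 and control replicate 4 reached into the KO range. On 1452530_a_at the day 21 groups did not overlap, with 548, 457, 554 and 488 in control and 620.1, 1096, 836 and 1011 in KO (0.77, SE 0.48, adjusted p = 0.670). In fetal liver 1422865_at read 1095, 615 and 1466, 0.80 above adult control (SE 0.37, adjusted p = 0.323), while 1452531_at read 76.4, 73.5 and 32.9, 1.23 below it on the log2 scale (difference −1.23, SE 0.51, adjusted p = 0.248). Between probe sets of Runx1, correlations over the 17 arrays ran from −0.35 to 0.63. The highest was between 1422865_at and 1452530_a_at.

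Mecom, which encodes the zinc finger protein EVI1 and its longer form with a PR domain, read 1434, 1035 and 1482 in fetal liver on its brightest probe set, 1438325_at. Control arrays read 1941, 1587 and 994 at day 7 and 1218, 953, 339.8 and 454 at day 21. KO arrays read 945, 811 and 807 at day 7 and 662, 856, 455 and 561 at day 21. The KO arrays of day 7 all lay below the controls (log2 difference −0.77, SE 0.42, limma adjusted p = 0.823), whereas at day 21 the difference was −0.08 (SE 0.36). The change of the KO effect between days was 0.69 (SE 0.56, adjusted p = 1), so a difference between days was not shown. Control day 21 differed from control day 7 by −1.16 (SE 0.39, adjusted p = 0.513), with overlap. The dim probe set 1422295_at read 320.0, 49, 145 and 156 in control and 92.5, 41.4, 49.6 and 37.6 in KO at day 21 (−1.41, SE 0.60, adjusted p = 0.493). Its correlation with the brightest one over 17 arrays was −0.01.

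Gfi1, a zinc finger repressor active in HSCs and granulocyte precursors, was the most variable member. Its within-group SD of 1.51 on the log2 scale exceeded that of 98.6% of the probe sets tested, whereas that of Erg 1440244_at, 0.21, exceeded 16.6%. Fetal liver arrays read 2157, 583 and 761. Control arrays read 982, 272 and 238 at day 7 and 38.7, 247, 276 and 33.7 at day 21. KO arrays read 109, 347 and 315, and 466, 195, 73.3 and 16, the last being the floor. Fetal liver differed from adult control by 2.32 (SE 0.99, interval 0.19 to 4.46, limma adjusted p = 0.266), with overlap and without a call. Neutrophil markers summed to 35530, 17927 and 3824 on fetal liver replicates 1, 2 and 3 and to 264 to 4103 on adult arrays, with 8 of 8 higher in fetal liver; their part in the Gfi1 values was not tested.

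Counted over the 22 probe sets, KO against control gave 0 calls by limma at an adjusted p under 0.05 at day 7, at day 21 and over both days, where 0.0025%, 0.03% and 0.0275% of all 40023 probe sets tested were called. An unadjusted limma p under 0.05 was found for 2, 6 and 6 members, against 6.69%, 9.35% and 10.7% of all. Groups did not overlap for 5 members at day 7, against 13% of all, for 2 at day 21, against 5.16%, and for 0 over both days, against 0.352%. The median log2 difference of the members was −0.08, −0.07 and −0.05, with 10, 8 and 8 members higher in KO. Over all probe sets the median was 0.00, 0.01 and 0.01. The change of the KO effect between days had 0 calls and 0 unadjusted p-values under 0.05 among members, against 0.0025% and 4.71% of all. For fetal liver against adult control, 2 of 22 were called, both lower, where 3.07% of all were called, 585 probe sets higher and 643 lower. An unadjusted p under 0.05 was found for 5, against 15.7%, and the groups did not overlap for 2, against 5.58%. Control day 21 against day 7 had 0 calls among members (0.05% of all), 2 unadjusted p-values under 0.05 (7.53%) and 1 member without overlap (5.69%). The fetal, KO and time comparisons share control arrays.

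Partner factors of these proteins were read from a list of 20 genes, of which 19 were measured, with 1 probe set per gene. In fetal liver 3 were called lower and none higher, where 3.32% of the 16784 genes tested were called. Gata2, a GATA factor of HSCs, read 722 to 1126 in fetal liver and 2288 to 3426 in adult control (log2 difference −1.59, SE 0.19, limma adjusted p = 3.1e-04). Lmo2, the adaptor that joins GATA and TAL1 in a complex, had −0.74 (SE 0.16, adjusted p = 0.0254), and Nfix, a nuclear factor I protein, −1.01 (SE 0.22, adjusted p = 0.0258). The list median was −0.10, against 0.02 for all genes. None of the 19 was called in KO at either day, where 0% and 0.0238% of all genes were called, or in control day 21 against day 7 (0.0357% of all genes). The smallest p over both days belonged to Gfi1b, the paralog of Gfi1 that acts in erythroid and megakaryocytic cells. It read 454 to 840 in control and 947 to 1543 in KO at day 7, and 555 to 1486 against 1746 to 3890 at day 21 (1.37 over both days, SE 0.25, adjusted p = 0.0773). The erythroid markers had a median difference of 1.57 at day 7 and 1.49 at day 21, with 5 of 6 higher at each and none called; their part in the Gfi1b values was not tested.

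The other ETS genes numbered 22, of which 19 were measured. Fetal liver had 2 called lower, where 3.32% of all genes were called. Elf2, an ELF-class activator, read 872 to 1316 in fetal liver and 3190 to 6051 in adult control (log2 difference −1.92, SE 0.18, limma adjusted p = 3.7e-05). Etv3, an ETS repressor, read 409 to 547 against 901 to 1441 (−1.23, SE 0.16, adjusted p = 6.9e-04). In KO none was called, where 0% of all genes were called at day 7 and 0.0238% at day 21 and over both days. Elf2 arrays did not overlap between KO and control, with 2218 to 2518 against 3190 to 4126 at day 7 and 2476 to 3242 against 3639 to 6051 at day 21, and the difference over both days was −0.73 (SE 0.14, adjusted p = 0.0882). Spic had the smallest p of the list at day 7 and was higher in KO (2.43, SE 0.76, limma adjusted p = 0.529). It read 28.4 to 215 in KO and 16.1 to 17.3, near the floor, in control. At day 21 its groups overlapped, and the difference over both days was 1.68 (SE 0.50, limma adjusted p = 0.245). Over both days 5 of the 19 were higher in KO, with a median of −0.13, where 50.9% of all genes were higher.

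Genes regulated by PU.1 in myeloid and lymphoid cells numbered 26, of which 25 were measured. Fetal liver had 1 called in each direction, against the same 3.32% of all genes. Irf8, a PU.1 partner of the monocyte lineage, read 287 to 393 in fetal liver and 56.9 to 164 in adult control (log2 difference 2.04, SE 0.37, limma adjusted p = 0.00867), on the arrays that also carried macrophage markers; the part of these was not tested. Csf3r, the G-CSF receptor, read 202 to 259 against 306 to 698 (−1.04, SE 0.25, adjusted p = 0.0408). KO had 0 calls at both days, where 0% and 0.0238% of all genes were called, with list medians of −0.03 and 0.27. Egr2, a zinc finger factor downstream of PU.1, read 113 to 388 in KO and 16.97 to 48.7 in control at day 21 (2.87, SE 0.69, adjusted p = 0.205), while at day 7 it read 61.1 to 205 in KO and 226 to 896 in control. The change of its KO effect between days was 4.83 (SE 1.06, adjusted p = 0.542) and did not pass. Over both days the smallest p belonged to Fcer1g (0.94, SE 0.34, limma adjusted p = 0.336), followed by Fcgr1 (−0.29, SE 0.10, limma adjusted p = 0.346). At day 7 it belonged to Mpeg1 (1.55, SE 0.62, limma adjusted p = 0.696). Mpeg1 read 38.5 to 97.5 in KO and 16.6 to 23.7, near the floor, in control at day 7. Of the 25 genes, 12 were higher in KO at day 7, 15 at day 21 and 16 over both days. Of all genes 50.1%, 50.3% and 50.9% were higher. A list of 12 HSC genes linked to RUNX1 and ERG, 10 of them measured, had no call in any of these comparisons, including fetal liver with its 3.32% of all genes called. Fgd5, an HSC marker, read 55.1 to 400.1 in KO and 466 to 1220 in control at day 21 (−2.30, SE 0.52, limma adjusted p = 0.172). At day 7 its groups overlapped, with 151 to 310.4 in KO and 150.3 to 379 in control. Control day 21 differed from control day 7 by 1.48 (SE 0.56, limma adjusted p = 0.575). Other genes of this list went the other way in KO, with Hoxb5 at 1.38 at day 21 (SE 0.61, limma adjusted p = 0.507). At day 7 Cd34 had 1.07 (SE 0.45, limma adjusted p = 0.698). Ctnnal1 was lower in KO at day 7, as Fgd5 was at day 21 (−1.95, SE 0.83, limma adjusted p = 0.700). It read 45.5 to 90.0 in KO and 83.9 to 1614 in control. The control median was 97.7, so the highest control array stood far above the rest. Of the 10 genes, 6 were higher in KO at day 7 and 3 at day 21, against 50.1% and 50.3% of all genes.

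The genes whose log2 intensities followed each member most closely over the 17 arrays were found among 10881 other named genes brighter than the median probe set. The arrays share groups, so these correlations are a description and carry no test. Gfi1 was followed by Tet1, which encodes an enzyme that oxidizes methylated cytosine (Pearson correlation 0.92, and 0.87 after group means were removed). Meis1 was followed by F2r, the thrombin receptor (0.88, 0.68 within groups), Gadd45b, a stress-response gene (0.87, 0.69 within groups), and Aldh1a1, a retinaldehyde dehydrogenase (0.84, 0.72 within groups). Spi1 was followed by Virma (0.86, 0.91 within groups), a subunit of the RNA m6A methylation complex, and Fli1 by Dbnl (0.87, 0.82 within groups), an actin-binding adaptor. For Erg the closest were Lonrf3 (0.81, 0.62 within groups) and Dusp6, an ERK phosphatase (0.79 and −0.09 within groups), so the Dusp6 likeness lay between groups alone. Etv6 was followed by Akirin2 (0.83), Runx1 by Zfp790 (0.80), Hlf by Sun2 (0.79) and Mecom by Smpdl3a (0.82). Among the members themselves, correlations of the brightest probe sets ran from −0.54, for Runx1 with Gfi1, to 0.60, for Fli1 with Etv6.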

How the data were processed

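RNA of sorted mouse hematopoietic stem cells was amplified, biotinylated and hybridized to Affymetrix arrays, per the labels' protocols. The deposited value table holds 1 intensity per probe set and array on a linear scale with a floor of 16. RMA is the tool named in the submitters' processing notes; the labels give neither the scaling nor any later step. The test had been planned for log2 values, so log2 of the deposited intensity was taken with no pseudocount. Names come from the platform's annotation, in which 34958 probe sets had 1 gene and 932 had several; another 9160, controls aside, have no name here. For 34754 an identifier matched the RefSeq gene table of GRCm38.p6, used for names and gene positions.

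Groups followed the sample titles. In R 4.3.3, limma 3.58.1 (lmFit and eBayes, residual df 12, prior df 1.41) was fitted to all 17 arrays with 1 mean per group and no covariates. The 64 control probe sets and 5014 at the floor on every array were left out. A call means an adjusted p (Benjamini-Hochberg) under 0.05 over the 40023 tested. All adjusted p-values are limma's. Gene lists used the brightest probe set of each gene, with p-values adjusted over all probe sets. Member genes were all named; of each list, up to 3 called genes per comparison and direction were named, and where none was called up to 2 with the smallest p, and likeness was ranked by Pearson correlation over the 17 arrays. The members and lists were chosen with earlier results of these data known. The most alike pair of arrays correlated at 0.944, so no array was a copy of another.

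As a check, simulated data held 200 changed probe sets among 40023. The changed ones were drawn from probe sets with a mean above the median, with log2 changes of 1, 2 and 4 in either direction. Recovery rates apply to that brightness and mix, and not to dimmer probe sets. At an adjusted p under 0.05 the fit, tested on simulated data, recovered 31.3% of 4-fold changes at day 7, 49.3% at day 21 and 31.3% for fetal liver, and 1.49%, 10.4% and 10.4% of 2-fold changes. Over both days the fit recovered 55.2% of 4-fold and 23.9% of 2-fold changes. False calls numbered 6 at day 7, 8 at day 21, 9 over both days and 9 for fetal liver. The number of arrays limits the precision.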

Additional observations from a re-analysis of the deposited data

Results flagged for a closer look

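In 44 sets of 4 arrays (the 22 probe sets at day 21, control and KO apart), 4 had 1 array far from the other 3, by the gap to its nearest neighbour relative to the range. Chance gives about 1 in 20. Fli1 1422024_at read 739.5 on KO day 21 replicate 1, where the nearest array read 1161 and the farthest 1225. Etv6 1434880_at read 1213 on control day 21 replicate 4, against 1697 for the nearest and 1813 for the farthest. Runx1 1452531_at read 113 on KO day 21 replicate 4, where the other arrays read 65.3 to 71.1. Mecom 1423011_at read 19.0 on control day 21 replicate 1, while the other 3 arrays lay at the floor of 16; with 3 arrays at the floor any higher value stands apart, so the chance of 1 in 20 does not apply to it.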

How the results depend on the processing

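No member was called in a KO, time or between-day comparison under any of the alternatives, which covered 12 settings and each array left out in turn. In fetal liver against adult control 2 members were called under all but these: 0 when the 3 groups compared were fitted alone, 1 with each array's 3′ to 5′ ratio as covariate, and 0 to 2 when 1 array was left out. Then Erg ran from −0.93 to −0.71 and Meis1 from −1.31 to −1.07. Scaling stays unknown: centring each array on its median shifted the median of all probe sets by −0.16 at day 21 and by −0.11 over both days, and that of control day 21 against day 7 by 0.16.

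Counts over all probe sets were small for KO and moved with most settings; the cause was not tested. At day 7 (1 called) they were 0 among probe sets brighter than the median, with 1 probe set per gene and with only the groups compared, 2 with no filter, 3 with a trended robust fit and 4 to 10 without 1 array. At day 21 (12 called) they were 7 above the median, 3 per gene, 4 with the groups alone, 0 with the trended fit, 0 with either the share at the floor or the 3′ to 5′ ratio as covariate and 0 to 57 without 1 array (57 without control day 21 replicate 2). Over both days (11 called) they were 3 after quantile normalization, 27 with a pseudocount of 16, 23 with no filter, 19 with the trended fit, 0 with the floor share, 2 with the 3′ to 5′ ratio and 2 to 26 without 1 array. For fetal liver (1228 called) they were 613 per gene, 492 with the groups alone and 851 to 1362 without 1 array. For control time (20 called) they were 10 above the median, 5 per gene, 13 with the groups alone, 10 with the floor share, 6 with the 3′ to 5′ ratio and 9 to 45 without 1 array. For the change of the KO effect between days (1 called) they were 2 after centring, 0 above the median, 2 with no filter, 0 per gene, 3 with the groups alone, 0 with the 3′ to 5′ ratio and 1 to 5 without 1 array. Leaving out control day 7 replicate 1 and control day 21 replicate 3 together, chosen after seeing the data, gave 8 at day 7, 24 over both days and 8 for the change between days.

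Replicate numbers gave little sign of pairing across the series. Deviations of the 31 same-numbered pairs correlated between −0.03 and 0.08, and those of the 84 differently numbered pairs between −0.09 and 0.05. The highest values came from same-numbered control and KO arrays of day 7, 0.080 for replicate 3 and 0.076 for replicate 1 (0.023 for replicate 2). Whether the arrays of that day were paired could not be decided from such small values. With the replicate number as a block the counts were 0 at day 21, 0 over both days, 11 for control time and 0 for the change between days, and the 2 fetal member calls were both kept.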
